A study of Rattus norvegicus with 12 samples.

Results

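The Nr4a family of orphan nuclear receptors, Nr4a1, Nr4a2 and Nr4a3, was read in the prefrontal cortex of rat offspring. The members were taken by gene name, which gave 3 genes of the 22431 in the deposited table, and all 3 were among the 14170 genes tested. Poly(A) RNA of 12 wild-type animals in early adolescence had been sequenced, 1 library per animal. There were 4 offspring exposed to oxycodone in utero (IUO), 4 exposed postnatally (PNO) and 4 saline controls. Oxycodone, an opioid agonist, was given by oral gavage at 15 mg/kg, with dosing up to postnatal day 21 at the latest, and the labels do not say which days belong to which group or give the strain, the sex or the age in days. The animals of each group were pairs from 2 dams, no label ties an animal to its dam, and tests that count the animals as independent can therefore give p-values that are too low. The comparisons ask what each window of exposure left in the adolescent cortex.

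Nr4a proteins are transcription factors of the nuclear receptor family for which no obligatory ligand is known, so their activity follows largely from how much of them a cell makes. Their genes are immediate early genes: in neurons, calcium and cyclic AMP switch them on within a short time through CREB and its coactivators, MEF2 and SRF, without new protein synthesis. The proteins bind the NBRE (AAAGGTCA) as monomers, and Nr4a1 and Nr4a2 also pair with retinoid X receptors. Nr4a1 (Nur77, NGFI-B) was found as a gene induced by nerve growth factor in rat PC12 cells. Nr4a2 (Nurr1) is required in mice for midbrain dopaminergic neurons, and in rodent forebrain it also marks the claustrum and the deepest cortical neurons. Nr4a3 (NOR-1) is the third member and overlaps with Nr4a1 in function.

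Promoter sequences of Nr4a1 and Nr4a2 are shown because the levels of these genes were inversely related over the libraries and because CREB acts on such sequences. The 250 bases before the RefSeq start on build GRCr8 follow, 5′ to 3′ on the gene's strand, at chr7:134259888-134260137 (plus strand) for Nr4a1 and chr3:62104888-62105137 (minus strand) for Nr4a2. Capitals mark the half-site of the cyclic AMP response element, TGACG or its reverse complement CGTCA.
Nr4a1: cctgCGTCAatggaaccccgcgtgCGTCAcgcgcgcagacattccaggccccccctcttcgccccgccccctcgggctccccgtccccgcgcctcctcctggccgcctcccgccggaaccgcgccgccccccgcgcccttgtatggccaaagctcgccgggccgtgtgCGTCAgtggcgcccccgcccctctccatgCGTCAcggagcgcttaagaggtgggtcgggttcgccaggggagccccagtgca
Nr4a2: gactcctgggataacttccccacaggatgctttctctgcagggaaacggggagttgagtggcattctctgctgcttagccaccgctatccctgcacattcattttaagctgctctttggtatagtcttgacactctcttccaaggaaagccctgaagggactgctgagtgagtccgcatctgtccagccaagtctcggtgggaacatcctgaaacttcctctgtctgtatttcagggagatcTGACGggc
The Nr4a1 window held 4 half-sites, starting 246, 226, 82 and 53 bases before the start, all on the opposite strand, and the Nr4a2 window held 1, 8 bases before the start. Of 33469 promoter windows of the same length, 18.2% held at least 1 half-site and 0.173% held at least 4. The full element TGACGTCA, which would hold a half-site on each strand, the NBRE and the serum response element (CC and GG around 6 bases of A or T) had no match on either strand in these windows, against 1.59%, 1.24% and 1.5% of all windows. Of the Nr4a1 window 74.8% was G or C, against 52.0% of the Nr4a2 window. A match of letters is a description and not a measured binding site.

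Nr4a1 was by far the most abundant member. Per length, on the FPKM scale (fragments scaled to transcript length and library size), it averaged 38.9 FPKM over the 12 libraries, against 3.51 FPKM for Nr4a2 and 3.18 FPKM for Nr4a3. Its level exceeded that of 89.2% of the genes tested, and Nr4a2 and Nr4a3 exceeded 35.9% and 33.7%. Nr4a1 made up 57.9% of the summed FPKM of the family in IUO 2, the lowest share, and 92.3% in PNO 4, the highest. In the deposited table Nr4a1 lies on chromosome 7 at 132374840 to 132389297 (plus strand, 2 transcripts), Nr4a2 on chromosome 3 at 41689851 to 41697877 (minus strand, 1 transcript) and Nr4a3 on chromosome 5 at 62361822 to 62402733 (plus strand, 1 transcript). The build of these gene positions is not given in the sources used here. Library totals ran from 49227533 to 60672246 counts, and the lowest count behind any member value was 393 (Nr4a2 in Saline 3, exact Poisson 95% interval 355.1 to 433.8). For Nr4a3 in PNO the half-width of the 95% counting interval was 6.25% to 6.66% of the count. The CV between animals was 5.32%. A CV is 1 SD over the mean and the half-width covers more than 1 SD of counting, so these values are not on the same footing.

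**Figure D1:**
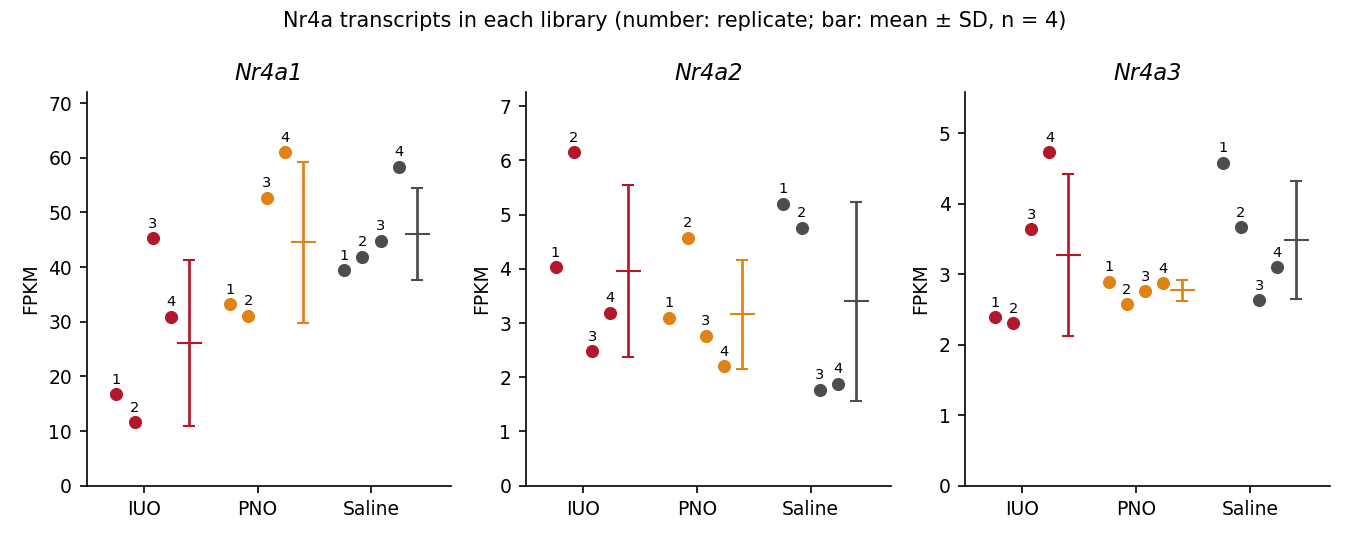
FPKM of Nr4a1, Nr4a2 and Nr4a3 in each of 12 libraries, with IUO, PNO and saline groups along the axis, replicate numbers at the points and bars for the mean ± SD (n = 4). Nr4a1 is lowest in IUO 1 and IUO 2 (16.7 and 11.6 FPKM), Nr4a2 is highest in IUO 2 (6.15 FPKM), and the 4 PNO values of Nr4a3 lie between 2.57 and 2.90 FPKM.

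Nr4a1 measured 16.7, 11.6, 45.2 and 30.9 FPKM in IUO 1 to 4, against 39.4, 41.9, 44.8 and 58.3 FPKM in saline 1 to 4. Of those IUO values 3 lay under every saline value and the other lay inside the saline range, so the groups overlapped. The means were 26.1 ± 15.1 FPKM in IUO and 46.1 ± 8.44 FPKM in saline (SD, n = 4 each). By the edgeR quasi-likelihood test on counts over all 14170 genes the log2 fold change was -0.85 (SE 0.36, 95% interval -1.61 to -0.08), with an unadjusted p of 0.0327 and an adjusted p of 0.998 (Benjamini-Hochberg). The difference therefore did not pass the threshold of an adjusted p under 0.05. In this comparison edgeR called 0% of genes in either direction, with 570 genes at an unadjusted p under 0.05 (1.71% of all genes lower and 2.31% higher), and DESeq2 called 11 (0.0635% higher and 0.0141% lower). DESeq2 gave Nr4a1 an adjusted p of 0.999.

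In PNO libraries 1 to 4 Nr4a1 measured 33.2, 31.1, 52.7 and 61.0 FPKM. Of the PNO values 2 lay below all saline values, 1 above all of them and 1 among them. The PNO mean was 44.5 ± 14.7 FPKM (SD, n = 4) and the log2 fold change over saline was -0.08 (SE 0.35, 95% interval -0.84 to 0.68, edgeR adjusted p = 0.949). The sign turned without PNO 1, PNO 2 or Saline 4, each left out alone, with log2 fold changes of 0.04, 0.06 and 0.06. In PNO against saline edgeR also called 0% of genes, with 1564 at an unadjusted p under 0.05 (6.82% higher and 4.22% lower), and DESeq2 called 117 (0.663% higher and 0.162% lower). Between the exposures the log2 fold change of Nr4a1, IUO over PNO, was -0.77 (SE 0.35, unadjusted p = 0.0496, edgeR adjusted p = 0.714). Of the IUO libraries, 3 lay below all 4 PNO libraries. Here edgeR called 0% of genes, with 953 at an unadjusted p under 0.05 (6.73% of all genes, 3.67% higher and 3.06% lower), and DESeq2 called 8 (0.0212% higher and 0.0353% lower). In the order of the group means, IUO lay below PNO and PNO below saline, and no neighbours in that order differed past the threshold.

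Nr4a1 had its 2 lowest values in IUO 1 and IUO 2, and both were among the 4 libraries with raised markers of striatum. The mean log2 CPM (counts scaled to library size) of 12 striatal genes was 4.91, 6.01, 3.58 and 3.49 in IUO 1 to 4, 3.69, 6.51, 3.67 and 3.62 in PNO 1 to 4, and 3.54, 4.69, 3.54 and 3.61 in saline 1 to 4. The other 2 were PNO 2, at 31.1 FPKM the lowest PNO value of Nr4a1, and Saline 2, at 41.9 FPKM the second lowest saline value. Leaving these 4 libraries out keeps IUO 3 and IUO 4 as the only IUO libraries. In that fit the log2 fold change of Nr4a1, IUO over saline, was -0.35 (SE 0.27, edgeR adjusted p = 0.771). With the striatal and olfactory bulb marker means as covariates it was -0.95 (SE 0.29, edgeR adjusted p = 0.789). Olfactory bulb markers were raised in IUO 3, PNO 1, PNO 3 and PNO 4, and leaving these libraries out gave -1.26 (SE 0.31, edgeR adjusted p = 1.00).

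Nr4a2 followed another order of libraries. It measured 4.03, 6.15, 2.48 and 3.19 FPKM in IUO 1 to 4, 3.10, 4.57, 2.77 and 2.21 FPKM in PNO 1 to 4, and 5.20, 4.76, 1.77 and 1.88 FPKM in saline 1 to 4. The highest and the lowest saline values were 2.94-fold apart, so the saline group alone spanned most of the range of all 12 libraries, and the groups overlapped in every comparison. Means were 3.96 ± 1.59 FPKM in IUO, 3.16 ± 1.01 FPKM in PNO and 3.40 ± 1.83 FPKM in saline (SD, n = 4 each). The log2 fold change was 0.21 for IUO over saline (SE 0.37, 95% interval -0.59 to 1.01), -0.12 for PNO over saline (SE 0.37, 95% interval -0.91 to 0.68) and 0.33 for IUO over PNO (SE 0.37, 95% interval -0.47 to 1.12). The edgeR adjusted p-values were 0.998, 0.930 and 0.827. In the order of means saline lay between PNO and IUO, and no neighbours differed past the threshold.

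The 4 libraries with raised striatal markers, together with Saline 1, held the 5 highest values of Nr4a2. Without those 4 libraries the log2 fold change of Nr4a2, IUO over saline, was -0.07 (SE 0.40, edgeR adjusted p = 0.977). Leaving out IUO 2 alone gave -0.08 (SE 0.37, edgeR adjusted p = 0.999). For PNO over saline the sign turned without PNO 4, Saline 1 or Saline 2, each left out alone, with log2 fold changes of 0.01, 0.15 and 0.08.

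Nr4a3 measured 2.39, 2.31, 3.64 and 4.73 FPKM in IUO 1 to 4, 2.90, 2.57, 2.76 and 2.87 FPKM in PNO 1 to 4, and 4.58, 3.67, 2.63 and 3.10 FPKM in saline 1 to 4. The 4 PNO values lay close together, while IUO had 2 libraries below all PNO libraries and 2 above all of them. The means were 3.27 ± 1.15 FPKM in IUO, 2.77 ± 0.148 FPKM in PNO and 3.49 ± 0.839 FPKM in saline (SD, n = 4 each). The log2 fold change was -0.11 for IUO over saline (SE 0.22, 95% interval -0.58 to 0.36), -0.36 for PNO over saline (SE 0.22, 95% interval -0.82 to 0.12) and 0.24 for IUO over PNO (SE 0.22, 95% interval -0.23 to 0.71). The edgeR adjusted p-values were 0.998, 0.568 and 0.776. PNO had the lowest mean, then IUO, then saline, with no neighbours past the threshold. The sign for IUO over saline turned without IUO 1, IUO 2 or Saline 1, each left out alone, with log2 fold changes of 0.02, 0.02 and 0.03. When the 4 libraries raised in striatal markers were left out, only IUO 3 and IUO 4 remained in IUO. These were the IUO libraries with the highest Nr4a3, and IUO 3 had raised bulb markers. In that fit Nr4a3 was 0.27 for IUO over saline (SE 0.21) and 0.58 for IUO over PNO (SE 0.21, unadjusted p = 0.0205, edgeR adjusted p = 0.314).

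**Figure D2:**
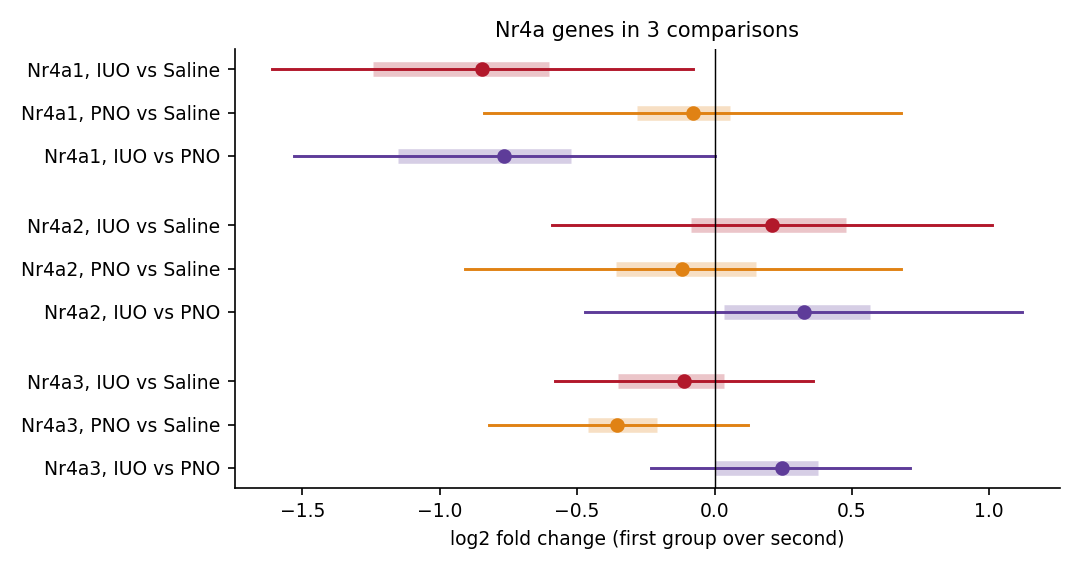
Log2 fold changes (horizontal axis, first group over second) of each Nr4a gene in each comparison, with points for the edgeR estimate, thin lines for its 95% interval and pale bars for the range when each library was left out in turn. The interval of Nr4a1 for IUO over saline, -1.61 to -0.08, lies below 0, while its adjusted p over all genes is 0.998.

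The members did not move as a family over the libraries. Nr4a1 and Nr4a2 were inversely related over the 12 libraries on the log2 CPM scale, with Pearson's r = -0.71 (permutation test, p = 0.00757, adjusted over the 3 pairs 0.0227) and Spearman's rho = -0.75 (permutation p = 0.00697, adjusted 0.0209). Within groups, after subtraction of group means, r was -0.74. Without IUO 1 and IUO 2, the libraries farthest from the median of Nr4a1, r was -0.64 (permutation p = 0.0527), which did not pass. Leaving out IUO 2, PNO 4 or Saline 4 alone each also ended the call, with r of -0.58, -0.67 and -0.66. In the 8 libraries without raised striatal markers, a subset chosen for correlations after the data were seen, r was -0.60 (exact permutation p = 0.113). The ratio of Nr4a1 to Nr4a2 in FPKM was 1.89 in IUO 2 and 31.0 in Saline 4, the lowest and the highest of the 12.

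Nr4a1 and Nr4a3 gave r = 0.39 (permutation p = 0.209, adjusted 0.314) and rho = 0.29 (permutation p = 0.355), with a within-group r of 0.54. Without IUO 1 and IUO 2 r was -0.27, and in the 8 libraries without raised striatal markers it was -0.52 (exact permutation p = 0.185). For Nr4a2 and Nr4a3 r was -0.01 (permutation p = 0.986) and rho was -0.06 (permutation p = 0.853), with a within-group r of -0.01. In those 8 libraries r was 0.67 (exact permutation p = 0.0664). Neither of these relations passed. Animals that shared a dam are not fully independent.

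Among nuclear receptors Nr4a1 and Nr4a2 were among the 5 genes with the largest spread within groups. Of 45 other nuclear receptor genes 26 were tested. Nr4a1 ranked 3 of 29 by mean FPKM, behind the thyroid hormone receptor Thra (103 FPKM) and the clock repressor Nr1d1 (44.0 FPKM), while Nr4a2 ranked 17 and Nr4a3 ranked 19. The within-group SD of log2 CPM, pooled over the groups, was 0.60 for Nr4a1, 0.62 for Nr4a2 and 0.35 for Nr4a3. The median was 0.23 for the other 26 receptors and 0.21 for all genes tested. The pooled SDs of the members exceeded those of 94.1%, 94.4% and 78.7% of tested genes. In IUO, PNO and saline the SD was 0.88, 0.49 and 0.28 for Nr4a1. It was 0.56, 0.44 and 0.80 for Nr4a2 and 0.51, 0.07 and 0.31 for Nr4a3. IUO 1 and IUO 2, the lowest in Nr4a1, had raised striatal markers. Only the retinoic acid receptor gene Rarb had a larger SD among the 29, at 0.94, with 6.30 FPKM in PNO 2 and 4.13 FPKM in IUO 2, the libraries with the highest striatal markers. Close behind were Rxrg at 0.59 and the estrogen-related receptor gene Esrrg at 0.56.

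**Figure D3:**
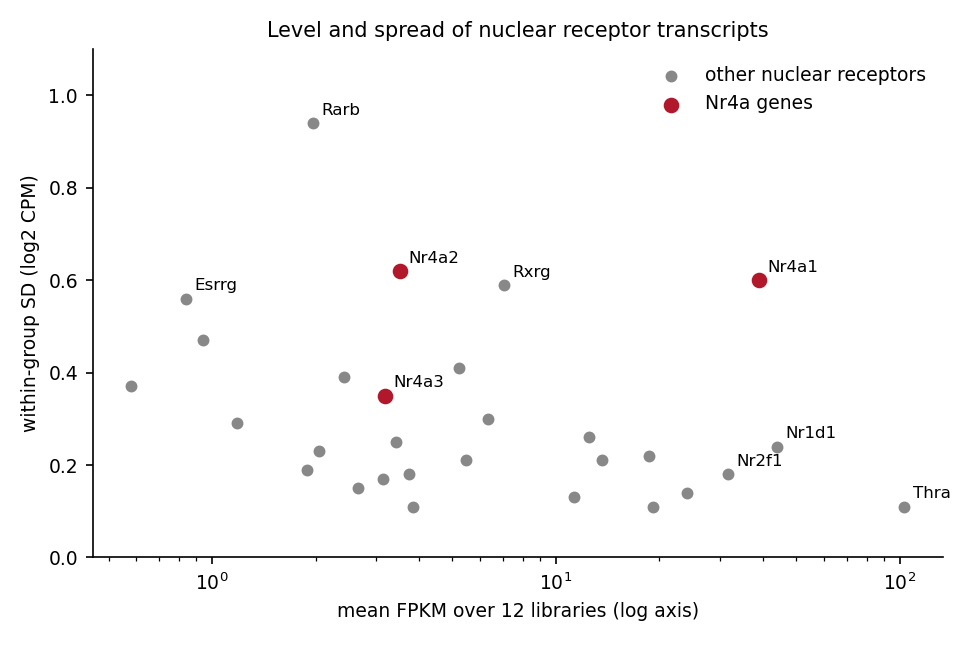
Within-group SD of log2 CPM against mean FPKM (log axis) for 29 nuclear receptor genes, with the Nr4a genes in red. Nr4a1 and Nr4a2 lie near an SD of 0.6, above all others but Rarb, and Thra has the highest mean at 103 FPKM.

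The gene whose pattern was most like that of Nr4a1 was Arc, a synaptic immediate early gene, with r = 0.98 over the 12 libraries as a description. Arc measured 15.2, 11.6, 89.7 and 60.9 FPKM in IUO 1 to 4, 52.2, 54.7, 86.9 and 96.2 FPKM in PNO 1 to 4, and 75.7, 71.4, 91.9 and 109 FPKM in saline 1 to 4. Its 2 lowest libraries were those of Nr4a1. Next came the pseudokinase gene Trib1 (r = 0.94) and the transcription factor gene Klf10 (r = 0.92), with 2 identifiers that carry no gene name in the table. Trib1 averaged 3.54 ± 1.53 FPKM in IUO, 5.08 ± 1.03 FPKM in PNO and 5.17 ± 0.623 FPKM in saline (SD, n = 4 each).

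Genes with a pattern much like that of Nr4a2 were Kank1 (r = 0.92), the choline transporter Slc44a1 (r = 0.92), the myelin gene Mal (r = 0.91) and the lysophosphatidic acid receptor Lpar1 (r = 0.90). All 7 oligodendrocyte markers had r over 0.5 with Nr4a2, against 10.4% of all genes tested, and all 7 had r under -0.5 with Nr4a1, against 10.6%. The mean log2 CPM of these markers ran from 8.82 to 10.09 in IUO, from 8.93 to 9.76 in PNO and from 8.88 to 9.70 in saline, and no marker was at 0. The highest means were those of the libraries with raised striatal markers, at 9.705 in IUO 1, 10.086 in IUO 2, 9.757 in PNO 2 and 9.703 in Saline 2. The next was 9.264 in Saline 1. These values of r were not computed without those libraries, so oligodendrocyte and striatal markers cannot be told apart here. The part of oligodendrocyte markers in the values of Nr4a1 and Nr4a2 was not tested. In bulk tissue fewer cells of a type and less RNA per cell cannot be told apart.

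Nr4a3 was most like Znrf1, a ubiquitin ligase gene (r = 0.95), Aurkaip1 (r = 0.94), Ebna1bp2 (r = 0.93), the ribosomal protein gene Rps24 (r = 0.92) and 1 identifier without a name. The points share libraries, depth and tissue composition, so these values of r describe likeness over 12 libraries only.

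The other immediate early genes sided with Nr4a1. Of 36 genes on this list 32 were tested, and none passed in any comparison (edgeR, smallest adjusted p 0.998 in IUO against saline and 0.305 in PNO against saline). DESeq2 called 2 of them, Bdnf and Pcsk1, both lower in PNO than in saline, where it called 0.162% of all genes lower. In IUO against saline 31 of 32 had a negative log2 fold change, with a median of -0.41, where 43.6% of all genes were negative and their median was 0.02. At an unadjusted p under 0.05 there were 9 of 32, where 4.02% of all genes had one. In PNO against saline 23 of 32 were negative with a median of -0.15, against 48.8% of all genes and a median of 0.01, and 6 of 32 had an unadjusted p under 0.05, where 11.0% of all genes had one. In IUO against PNO 26 of 32 were negative, with a median of -0.23, against 49.2% of all genes and a median of 0.00. Genes of a list share libraries and can vary together, so their signs are not independent. The list mean in IUO 3 and IUO 4 (4.83 and 4.67 log2 CPM) lay inside the saline range of 4.61 to 4.94. These counts were not made without IUO 1 and IUO 2.

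Klf10 measured 5.36, 5.04, 8.84 and 6.63 FPKM in IUO 1 to 4, 8.25, 8.11, 10.1 and 9.88 FPKM in PNO 1 to 4, and 8.42, 11.8, 9.30 and 10.6 FPKM in saline 1 to 4. For IUO over saline its log2 fold change was -0.65 (SE 0.17), and 1 IUO value lay inside the saline range. The neurotrophin gene Bdnf averaged 3.26 ± 0.961 FPKM in IUO, 3.07 ± 0.213 FPKM in PNO and 4.67 ± 0.415 FPKM in saline. Nptx2, a pentraxin that clusters glutamate receptors, averaged 51.9 ± 3.99, 60.8 ± 9.24 and 78.3 ± 16.2 FPKM in the same order of groups. Pcsk1, which cleaves prohormones, averaged 3.22 ± 0.290 FPKM in IUO, 3.34 ± 0.249 FPKM in PNO and 4.23 ± 0.213 FPKM in saline. Their adjusted p-values were 0.998 for each in IUO against saline (edgeR), so these are differences that did not pass.

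The mean log2 CPM of the 32 genes was 4.06, 3.86, 4.83 and 4.67 in IUO 1 to 4, 4.41, 4.51, 4.79 and 4.99 in PNO 1 to 4, and 4.89, 4.61, 4.77 and 4.94 in saline 1 to 4. IUO 1 and IUO 2 lay below the other 10 libraries. Nr4a1 tracked this mean with r = 0.96 (permutation p = 2e-05, adjusted over 15 relations 3e-04) and rho = 0.85 (permutation p = 0.00082, adjusted 0.0123). Without IUO 1 and IUO 2 r was 0.81 (permutation p = 0.0049), and in the 8 libraries without raised striatal markers it was 0.78 (exact permutation p = 0.0127). Nr4a3 gave r = 0.56 (permutation p = 0.0539, adjusted 0.103) and Nr4a2 r = -0.64 (permutation p = 0.0241, adjusted 0.0602), neither past the threshold. Gene by gene, 29 of the 32 had r over 0.5 with Nr4a1, where 7.85% of all genes did, and none had r over 0.5 with Nr4a2, where 18 of the 32 had r under -0.5 and 9.87% of all genes did.

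**Figure D4:**
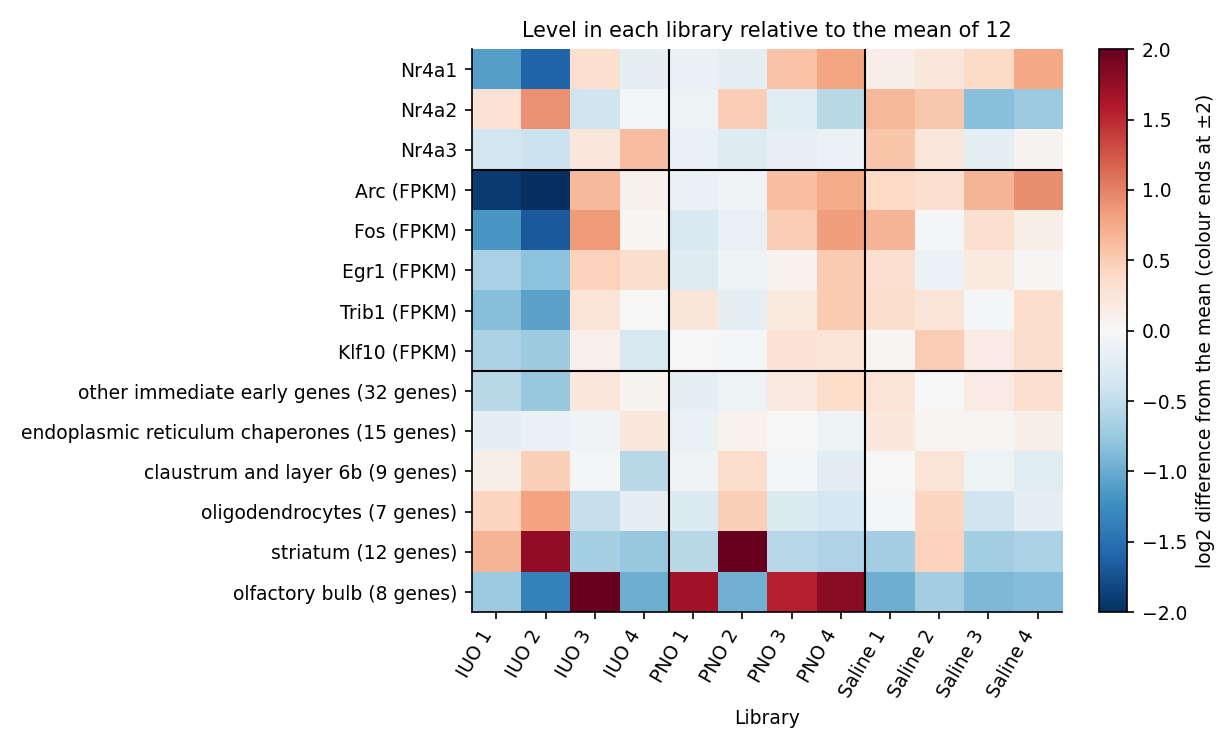
Colour gives the log2 difference from the mean of 12 libraries for the Nr4a genes (log2 CPM), 5 immediate early genes (log2 FPKM) and the mean log2 CPM of 6 lists, by library, with the colour scale ending at ±2. Nr4a1 and the immediate early genes are lowest in IUO 1 and IUO 2, while Nr4a2 sides with oligodendrocyte and striatal markers.

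Markers of the claustrum and layer 6b, where Nr4a2 is a known marker in rodents, gave r = 0.68 with Nr4a2 over the 12 libraries (permutation p = 0.0144, adjusted over 15 relations 0.0540) and rho = 0.76 (permutation p = 0.00558, adjusted 0.0418). Of 10 genes on this list 9 were tested. Without IUO 4 and IUO 2, the libraries farthest from the median of the list, r was 0.81 (permutation p = 0.00447). In the 8 libraries without raised striatal markers r was 0.13 (exact permutation p = 0.720), so the relation was not seen there. The list mean was 4.40 ± 0.43 log2 CPM in IUO, 4.40 ± 0.24 in PNO and 4.37 ± 0.21 in saline (SD, n = 4 each).

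**Figure D5:**
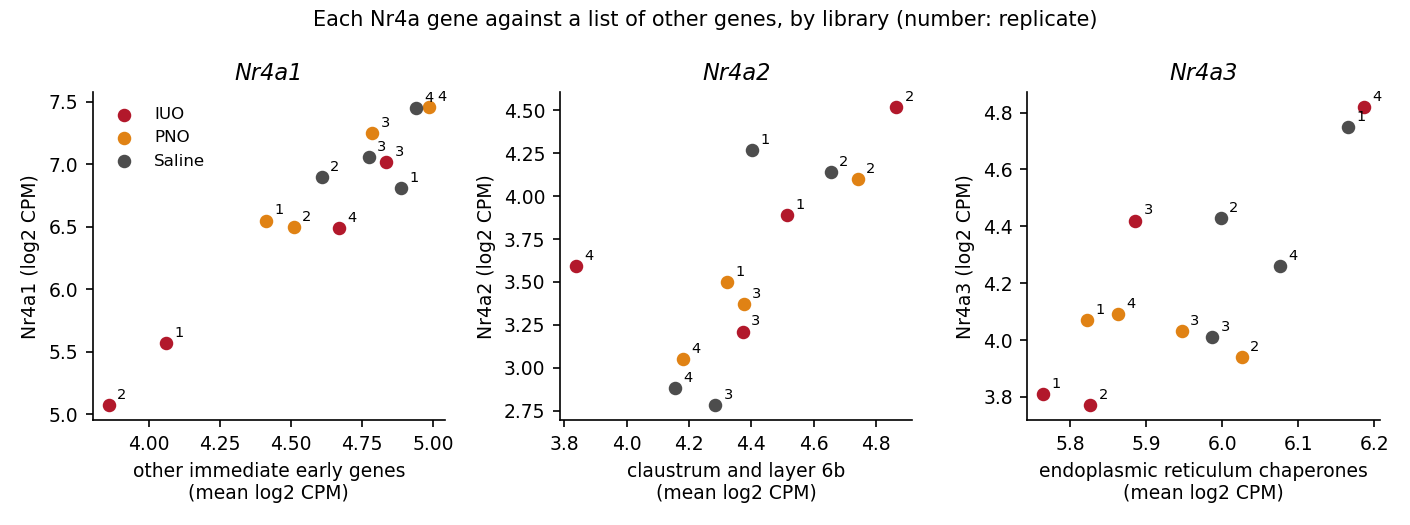
Log2 CPM of each Nr4a gene (vertical) against the mean log2 CPM of a gene list (horizontal), with 1 point per library, coloured by group and numbered by replicate. Pearson's r is 0.96 for Nr4a1 with the other immediate early genes, 0.68 for Nr4a2 with claustrum and layer 6b markers (adjusted permutation p = 0.0540, and r = 0.13 in the 8 libraries without raised striatal markers) and 0.77 for Nr4a3 with endoplasmic reticulum chaperones.

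Partners and regulators of the receptors showed no gene past the threshold in any comparison by edgeR. DESeq2 called Crem lower and Ncoa3 higher in PNO than in saline, as it did 0.162% and 0.663% of all genes. Among retinoid X receptors Rxrb averaged 19.2 ± 0.518 FPKM in IUO, 19.6 ± 1.62 FPKM in PNO and 18.7 ± 1.44 FPKM in saline, and Rxra averaged 2.18 ± 0.589, 2.73 ± 0.723 and 2.35 ± 0.479 FPKM (SD, n = 4 each). Rxrg, which is also a striatal marker, averaged 6.86 ± 2.93 FPKM in IUO, 8.76 ± 4.59 FPKM in PNO and 5.50 ± 1.22 FPKM in saline, with 15.6 FPKM in PNO 2. Of 28 genes that switch on Nr4a transcription 24 were tested, and their log2 fold changes in IUO over saline were above 0 for 18 and below 0 for 6, with a median of 0.06, where 43.6% of all genes were below 0. In PNO over saline 17 were above 0 and 7 below, with a median of 0.09, where 48.8% of all genes were below 0.

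Crem, which encodes CREB-like activators and the repressor ICER, averaged 2.86 ± 0.529 FPKM in IUO, 2.42 ± 0.242 FPKM in PNO and 3.54 ± 0.230 FPKM in saline (SD, n = 4 each). All 4 PNO values, 2.29, 2.78, 2.33 and 2.28 FPKM, lay below the saline values of 3.65, 3.78, 3.25 and 3.48 FPKM. Groups did not overlap in that direction for 4.66% of all genes in PNO against saline. Crem was named for its small unadjusted p against saline, so the lack of overlap is a description and not a further test. The log2 fold change of Crem was -0.57 for PNO over saline (SE 0.13, edgeR adjusted p = 0.305) and -0.33 for IUO over saline (SE 0.13, adjusted p = 0.998). The acetyltransferase gene Ep300, with 2 identifiers in the table of which 1 was tested, had log2 fold changes of 0.26 (SE 0.12) in IUO and 0.36 (SE 0.12) in PNO over saline.

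Of 14 co-regulators, all tested, 2 were below 0 in IUO over saline (43.6% of all genes) and 3 in PNO over saline (48.8% of all genes), with a median of 0.06 in each. Ncoa3, a coactivator of nuclear receptors, averaged 2.12 ± 0.506 FPKM in IUO, 2.77 ± 0.277 FPKM in PNO and 1.57 ± 0.208 FPKM in saline. Its PNO values of 2.69, 3.18, 2.55 and 2.67 FPKM lay above the saline values of 1.77, 1.64, 1.58 and 1.28 FPKM, as those of 5.17% of all genes did. Ncoa3 too was named for its small unadjusted p against saline, so this is no further test. The log2 fold change was 0.80 for PNO over saline (SE 0.17, edgeR adjusted p = 0.305). Ncor1, a corepressor, averaged 6.49 ± 0.628, 7.68 ± 1.43 and 6.08 ± 0.342 FPKM in IUO, PNO and saline.

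Endoplasmic reticulum chaperones are genes that Nr4a proteins were reported to control in mouse hippocampus. All 15 were tested and none passed by edgeR or DESeq2. In IUO over saline 14 of 15 were negative with a median of -0.20 and 6 had an unadjusted p under 0.05, where 43.6% of all genes were negative and 4.02% had such a p. In PNO over saline 13 of 15 were negative with a median of -0.18 and 5 had an unadjusted p under 0.05, where the shares of all genes were 48.8% and 11.0%. Hspa5, the chaperone BiP, averaged 108 ± 17.3 FPKM in IUO, 119 ± 10.5 FPKM in PNO and 150 ± 18.1 FPKM in saline (SD, n = 4 each). Pdia6, a disulfide isomerase, averaged 39.3 ± 3.55, 40.9 ± 1.09 and 45.9 ± 3.19 FPKM in the same order. Their mean log2 CPM gave r = 0.77 with Nr4a3 (permutation p = 0.00384, adjusted over 15 relations 0.0288) and rho = 0.65 (permutation p = 0.0255, adjusted 0.0956). Without IUO 4 and IUO 1 r was 0.61 (permutation p = 0.0619), so the call ended without those libraries, and in the 8 libraries without raised striatal markers r was 0.77 (exact permutation p = 0.0303). With Nr4a1 r was 0.39 and with Nr4a2 it was 0.00 (permutation p = 0.212 and 0.993). Gene by gene, 8 of the 15 chaperones had r over 0.5 with Nr4a3, where 17.8% of all genes did. Of the 15, 1 had r under -0.5 with Nr4a3, where 19.2% of all genes did. These shares of all genes were larger than for Nr4a1 (7.85% and 10.6%) and Nr4a2 (10.4% and 9.87%).

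Of 13 dopaminergic targets of Nr4a2 in the midbrain 12 were in the table and 7 tested, none of which passed by edgeR. The neuropeptide gene Vip had the highest mean of the list, 16.3 FPKM, and the other 5 genes lay under the filter. The dopamine transporter gene Slc6a3 averaged 0.0256 FPKM over the 12 libraries. Th, which encodes the enzyme that limits dopamine synthesis, measured 1.74, 0.951, 10.3 and 1.70 FPKM in IUO 1 to 4, 4.22, 0.996, 3.37 and 3.88 FPKM in PNO 1 to 4, and 1.34, 1.31, 1.98 and 1.75 FPKM in saline 1 to 4. The 4 highest values were those of the libraries with raised olfactory bulb markers, whose dopaminergic neurons express Th. Nr4a2 measured 2.48, 3.10, 2.77 and 2.21 FPKM in those 4 libraries. The aromatic amino acid decarboxylase gene Ddc averaged 0.920 ± 0.133 FPKM in IUO, 0.559 ± 0.115 FPKM in PNO and 0.914 ± 0.101 FPKM in saline. Its log2 fold change for PNO over saline was -0.73 (SE 0.18, edgeR adjusted p = 0.305). DESeq2 called Ddc lower there, as it did 0.162% of all genes. Over the 7 tested genes the median log2 fold change was -0.01 for IUO and -0.18 for PNO over saline.

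The 12 markers of cortical excitatory neurons were all tested. Their mean log2 CPM ran from 6.15 to 6.43 in IUO, from 6.28 to 6.40 in PNO and from 6.22 to 6.40 in saline. In the libraries with raised striatal markers it was 6.42 (IUO 1), 6.43 (IUO 2), 6.40 (PNO 2) and 6.22 (Saline 2). This mean therefore cannot show whether other tissue was present. Olfactory bulb markers, 8 of 8 tested, ran from 0.68 to 4.44 in IUO, from 1.08 to 3.84 in PNO and from 1.06 to 1.35 in saline. The part of striatal and bulb tissue in the Nr4a values was not tested beyond the covariates and left-out libraries given above. Of 13 striatal markers 12 were tested, and Isl1 was listed at 0 in at least 1 library. Interneuron markers, 9 of 10 tested, averaged 5.35 ± 0.24 log2 CPM in IUO, 5.49 ± 0.05 in PNO and 5.06 ± 0.16 in saline (SD, n = 4 each). The mean log2 CPM of 2 Y-linked genes was 4.98 to 5.13 in IUO 3, PNO 2, PNO 3, Saline 1 and Saline 3 and -1.81 to -0.83 in the other 7 libraries. With this mean as a covariate the log2 fold change of Nr4a1 was -0.84 for IUO over saline (SE 0.36, edgeR adjusted p = 1.00), and no Nr4a gene passed in any comparison.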

How the data were processed

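RNA of 12 prefrontal cortex samples was sequenced from stranded poly(A) libraries, per the labels' protocols. The authors aligned with HISAT2 and quantified with StringTie, per the submitters' processing notes. For versions, settings, genome build and annotation nothing is stated in the sources used here. As deposited, the table has whole-number counts and FPKM per gene and library, per the file headers. FPKM divided by CPM lay within 0.882% of its mean over the libraries for each member.

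The filter kept the 14170 of 22431 genes whose FPKM averaged 0.5 or more. Counts were tested with edgeR 4.0.16 (quasi-likelihood, TMM factors, 1 model of 3 groups over 12 libraries, two-sided, Benjamini-Hochberg, threshold 0.05). DESeq2 1.42.0 and limma 3.58.1 served as alternatives, in R 4.3.3. Log2 CPM used a prior count of 2. In simulated counts for IUO against saline over 14170 genes, 86 of 100 genes with a 2-fold and 95 of 100 with a 4-fold change were recovered. That fit also made 8 false calls. The counts were drawn independently for genes picked at random, without shared dams or striatal and bulb tissue. The recovery therefore checks the code and does not say what change in an Nr4a gene could be detected here. Correlations were tested with 100000 permutations in Python 3.11.15 (or exactly, for 8 libraries). The 15 relations set 5 list means against 3 members. Those with striatal and bulb means are given as descriptions only, because these means fall into clusters. RefSeq promoters were found for 2 of 3 members.

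Named genes were the members, up to 4 genes per list by unadjusted p over the comparisons with saline, and the 5 genes most like each member by r. Other genes were named after their values were seen, and 1 gene under this rule is not reported here. Libraries counted as raised in a marker when over 0.5 log2 above the median. Members and lists were chosen with earlier results of these data known. Alternatives included pseudocounts of 0.1, 0.5 and 1, other filters and size factors, sample weights, covariates and leaving out libraries. No label says that replicates with the same number share an animal, dam or day.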

Additional observations from a re-analysis of the deposited data

Results flagged for a closer look

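Of 24 groups of 4 libraries examined (3 members and 5 list means in 3 groups), 4 had a library far from the other 3, where chance flags about 1 in 20 groups. None of the 4 was a value of an Nr4a gene. The mean log2 CPM of striatal markers was 6.51 in PNO 2, against 3.62 to 3.69 in the other PNO libraries, and 4.69 in Saline 2, against 3.54 to 3.61 in the other saline libraries. Nr4a2 was the highest of its group in PNO 2 (4.57 FPKM) and the second highest in Saline 2 (4.76 FPKM). The mean of olfactory bulb markers was 4.44 in IUO 3, against 0.681 to 1.32 in the other IUO libraries, where Nr4a1 was the highest of its group (45.2 FPKM). It was 1.08 in PNO 2, against 3.59 to 3.84 in the other PNO libraries, where Nr4a1 was the lowest of its group (31.1 FPKM).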

How the results depend on the processing

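None of the Nr4a genes passed the threshold in any comparison under any alternative run, with adjusted p-values from 0.264 upward. Nr4a1 kept its direction for IUO over saline (log2 fold change -1.28 to -0.35 over 28 alternatives) and for IUO over PNO (-1.30 to -0.35), as did Nr4a3 for PNO over saline (-0.46 to -0.11). The directions below turned, and the cause was not tested. Without the libraries with raised striatal markers, Nr4a2 was -0.068 and Nr4a3 0.266 for IUO over saline, and Nr4a1 was 0.001 for PNO over saline. Striatal and bulb covariates gave 0.033 for Nr4a3 in IUO over saline. Leaving out the libraries with raised bulb markers leaves PNO 2 as the only PNO library, which is assumed to vary like the other groups and has raised striatal markers. In that fit Nr4a2 was 0.414 for PNO over saline and -0.049 for IUO over PNO. Sample weights gave 0.018 for Nr4a1 in PNO over saline and -0.049 for Nr4a3 in IUO over PNO, and a pseudocount of 0.1 gave 0.013 for Nr4a2 in PNO over saline. With each library left out in turn, IUO over saline ran from -0.084 to 0.478 for Nr4a2 and from -0.353 to 0.034 for Nr4a3, and PNO over saline from -0.281 to 0.057 for Nr4a1 and from -0.357 to 0.151 for Nr4a2.

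The correlation of Nr4a1 with Nr4a2 ran from -0.78 to -0.58 with each library left out. That of Nr4a2 with Nr4a3 ran from -0.23 to 0.24, and was 0.04 on the log2(FPKM + 0.5) scale.

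Against 0 genes called by edgeR in each comparison, DESeq2 called 11 for IUO against saline, 117 for PNO against saline and 8 for IUO against PNO. For PNO against saline limma on log2 FPKM called 1 at each pseudocount, a fit of those groups alone 11 and sample weights 32. Without the libraries with raised striatal markers 4 genes were called for IUO against saline and 3 for IUO against PNO. Without those with raised bulb markers the counts were 1 for IUO against saline and, with PNO 2 as the lone PNO library, 3 for PNO against saline and 3 for IUO against PNO. With each library left out they ran from 0 to 1, from 0 to 19 (19 without IUO 4) and from 0 to 1 in the same order.

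With the replicate number as a block, Nr4a1 was -1.004 for IUO over saline (SE 0.219, against 0.355 without the block; unadjusted p = 0.000867, edgeR adjusted p = 0.722), and 0 genes were called in each comparison, so no call changed. Same-numbered libraries were correlated over genes after subtraction of group means from log2 CPM. The values were 0.015 to 0.142 (IUO and saline), 0.054 to 0.120 (PNO and saline) and 0.058 to 0.411 (IUO and PNO). Of 8 libraries, 4, 4 and 5 correlated best with their own number, out of 4 in the other group. The highest was 0.411 for IUO 2 and PNO 2, both raised in striatal markers. Next came 0.238 for IUO 3 and PNO 3, both raised in bulb markers. Saline 2, also raised in striatal markers, gave 0.032 with IUO 2 and 0.12 with PNO 2. Pairing and shared tissue markers cannot be told apart here. No label says what a number marks, so the numbers were not treated as pairs. All of the same-number correlations were positive. Group means had been removed from them, so values below 0.1 do not show that the numbers are unrelated.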
